A study of Rattus norvegicus with 2 samples.

Results

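Genes of the endoplasmic reticulum (ER) stress response and of the heat shock response were followed in the basilar artery of the rat after ligation of both common carotid arteries (CCAs). The set held 50 genes chosen by name for their known roles, with earlier results of these data known. Of the 50, 45 had a named probe set on the array, out of 15037 named genes in all. Each of the 45 was read by 1 probe set. The 5 genes without a named probe set were Manf, Edem1, Hspa1b, Dnaja1 and Dnajb1, and no value is given for them.

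The samples were basilar arteries of male Sprague-Dawley rats, 13 months old according to the labels, on 2 Clariom S rat arrays. The Ligation array held RNA pooled from 4 rats, taken 4 weeks after both CCAs were tied off, and the Sham array held RNA pooled from 4 rats whose CCAs were only exposed. With 1 array per group there was no replicate, so a difference lies between 2 pools of whole vessels, no test, SD or p-value was possible, and the difference has no replicate check. The deposited value is a linear signal intensity. A difference is given as log2 of the ligation signal less log2 of the sham signal, and a fold is Ligation over Sham. Where a pair of signals is given, the Ligation array comes first.

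Proteins that enter the ER are folded there by chaperones such as BiP, the product of Hspa5. When unfolded proteins pile up, the sensors IRE1, ATF6 and PERK (genes Ern1, Atf6 and Eif2ak3) start a response that raises the chaperones through XBP1 and ATF6 and, through ATF4 and CHOP (Ddit3), genes of amino acid supply and cell death. The heat shock response is its counterpart in the cytosol, where HSF1 switches on HSP70, HSP90 and their partners. Arterial smooth muscle also holds small heat shock proteins, some of which bind the contractile apparatus.

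Sequences before the annotated start sites are shown because they carry the DNA elements through which these responses are known to act. RefSeq promoter windows of the rat assembly GRCr8 were found for 40 of the 50 genes, and the 250 bases before each start were searched on both strands. The ER stress response element, searched as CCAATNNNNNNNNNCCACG, was present before 7 genes, Hspa5, Hsp90b1, Calr, Canx, Creld2, Dnajc3 and Xbp1, and in 0.0657% of all 33469 windows. In the following stretches, 5′ to 3′ on the strand of the gene, capitals mark the element, which runs on the opposite strand in Calr:
Hspa5, chr3:38452961-38453003, plus strand: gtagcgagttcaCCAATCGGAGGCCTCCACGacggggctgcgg
Xbp1, chr14:84604546-84604588, plus strand: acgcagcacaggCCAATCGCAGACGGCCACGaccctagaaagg
Dnajc3, chr15:102432522-102432564, plus strand: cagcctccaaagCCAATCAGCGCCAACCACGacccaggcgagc
Canx, chr10:35158057-35158099, minus strand: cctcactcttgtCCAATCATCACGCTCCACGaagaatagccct
Calr, chr19:40213123-40213165, plus strand: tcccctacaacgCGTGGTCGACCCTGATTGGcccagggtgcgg

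The element ended 25 bases before the start in Hspa5, 47 in Xbp1 and 115 in Dnajc3, and it lay further out, at 212 and 214 bases, in Canx and Calr. Hsp90b1 held 2 copies. The second ER stress response element, searched as ATTGGNCCACG, was found before Herpud1 and Hyou1 and in 0.0418% of windows. The heat shock element, searched as 3 inverted units in GAANNTTCNNGAA, was found before Hspa8, Hsph1, Hspd1 and Hspe1 and in 0.663% of windows. Hspd1 and Hspe1 are neighbors, and both windows reached the same stretch between their starts. That stretch overlapped the annotated span of Hspd1. The stretches with the matches of Creld2 and Herpud1 overlapped the spans of those genes, and that of Hsp90b1 overlapped Ttc41. Not every match before a start therefore lay outside an annotated gene. No window of the 40 genes held the composite element of C/EBP and ATF factors, searched as TGATGNAAT and found in 0.944% of windows. No match overlapped a match of another element. One gene with the second ER stress element and both cytosolic genes with the heat shock element are shown, with each match in capitals on either strand:
Hyou1, chr8:53602682-53602816, plus strand: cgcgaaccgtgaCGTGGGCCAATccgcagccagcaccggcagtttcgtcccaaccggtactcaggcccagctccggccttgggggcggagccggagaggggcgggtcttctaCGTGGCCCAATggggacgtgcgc
Hsph1, chr12:10427320-10427356, plus strand: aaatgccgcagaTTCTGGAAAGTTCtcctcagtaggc
Hspa8, chr8:50080289-50080483, plus strand: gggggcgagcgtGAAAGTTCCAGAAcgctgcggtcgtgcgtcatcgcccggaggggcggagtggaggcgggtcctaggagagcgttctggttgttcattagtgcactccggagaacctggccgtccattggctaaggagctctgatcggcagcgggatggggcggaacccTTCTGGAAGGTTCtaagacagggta

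A match of letters is a description of the sequence and not a measured binding site. Genes with a match lay on both sides of 0. Of the 7 with the first ER element, Dnajc3, Xbp1 and Hsp90b1 had differences of 0.76, 0.65 and 0.51, Hspa5 had 0.18, and Creld2 had -0.24. Of the 4 with a heat shock element, Hsph1 had the highest value, 0.23, and Hspa8 the lowest, -0.04.

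**Figure D1:**
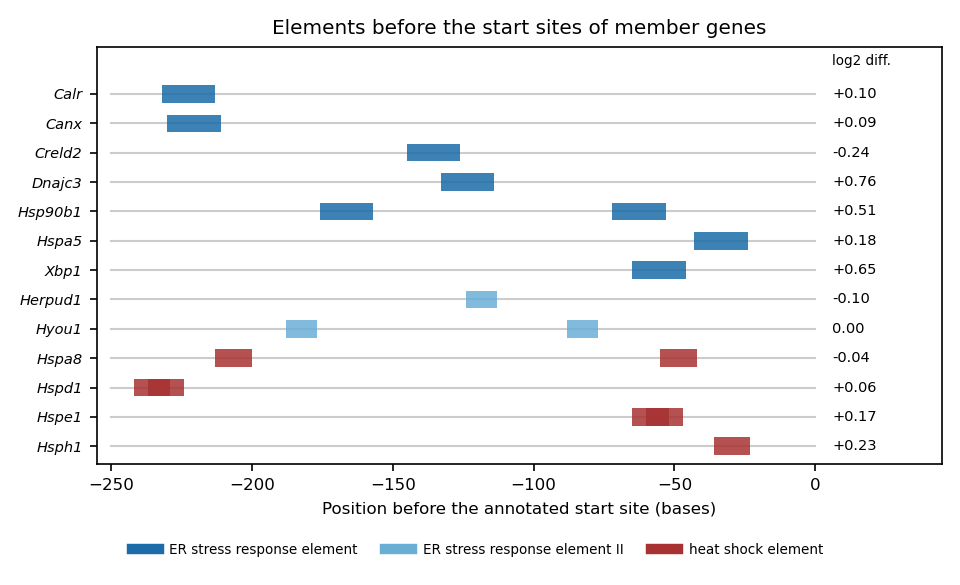
Position of each element in bases before the annotated start site (x axis) for the 13 genes with a match, with the log2 difference of the gene at the right. The 3 highest differences, for Dnajc3 (0.76), Xbp1 (0.65) and Hsp90b1 (0.51), belong to genes with the first ER stress element, and Creld2 with the same element is at -0.24.

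None of the 45 genes was over 2.0-fold higher in the Ligation array, where 4.04% of all named genes were, and 2 were under 0.5-fold, where 2.97% of all named genes were. The 2 were the small heat shock genes Hspb6 and Hspb7. At a threshold of 1.5-fold, 4 genes were higher, Dnajb4, Dnajc3, Asns and Xbp1, beside 12.4% of all named genes, and 3 were lower, Hspb6, Hspb7 and Bag3, beside 10.8%. Neither count at 1.5-fold was above the share of all named genes. In all, 23 genes were above 0, which is near the 48.7% of all named genes, 20 were below 0 and 2 were equal on both arrays. The median difference was 0.04, and that of all named genes was -0.01. Background was set by probe sets that match no rat transcript, and 7286 of the named genes but only 3 members were within it on both arrays. Over genes above background on at least 1 array, the median was 0.05 for 42 members, 22 of them above 0. It was 0.08 for 7751 named genes, 4371 of them above 0. The order of these medians was the reverse of that over all genes. Of these 7751 named genes, 1374 were over 1.5-fold higher and 737 were over 1.5-fold lower, against 4 and 3 of the 42 members. Over 2-fold higher were 480, and 271 were under 0.5-fold, against 0 and 2 of the 42 members.

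For scale, 11 housekeeping genes on the same arrays ran from 0.709-fold for Pgk1 to 1.45-fold for Gapdh, and 36 of the 45 genes lay inside that range. Above it were Dnajb4, Dnajc3, Asns, Xbp1, Pdia6 and Ppp1r15a, and below it were Bag3, Hspb6 and Hspb7. The housekeeping genes are no measure of replicate error. Centring the arrays on them moved the median of all genes from -0.01 to -0.18 and lowered every difference by 0.17. All named genes past 2-fold were then 382 higher and 741 lower (34.0% higher), against 607 and 447 (57.6% higher) as deposited.

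The arrays had antigenomic probe sets, which match no rat transcript, and the brightest of the 23 stood at 156.8 (Ligation) and 150.9 (Sham). A signal no higher than this is called within background, which does not show that a gene was silent. Only Hspa1a, Trib3 and Chac1 were within background on both arrays, and Hspb7 was within it after ligation.

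**Figure D2:**
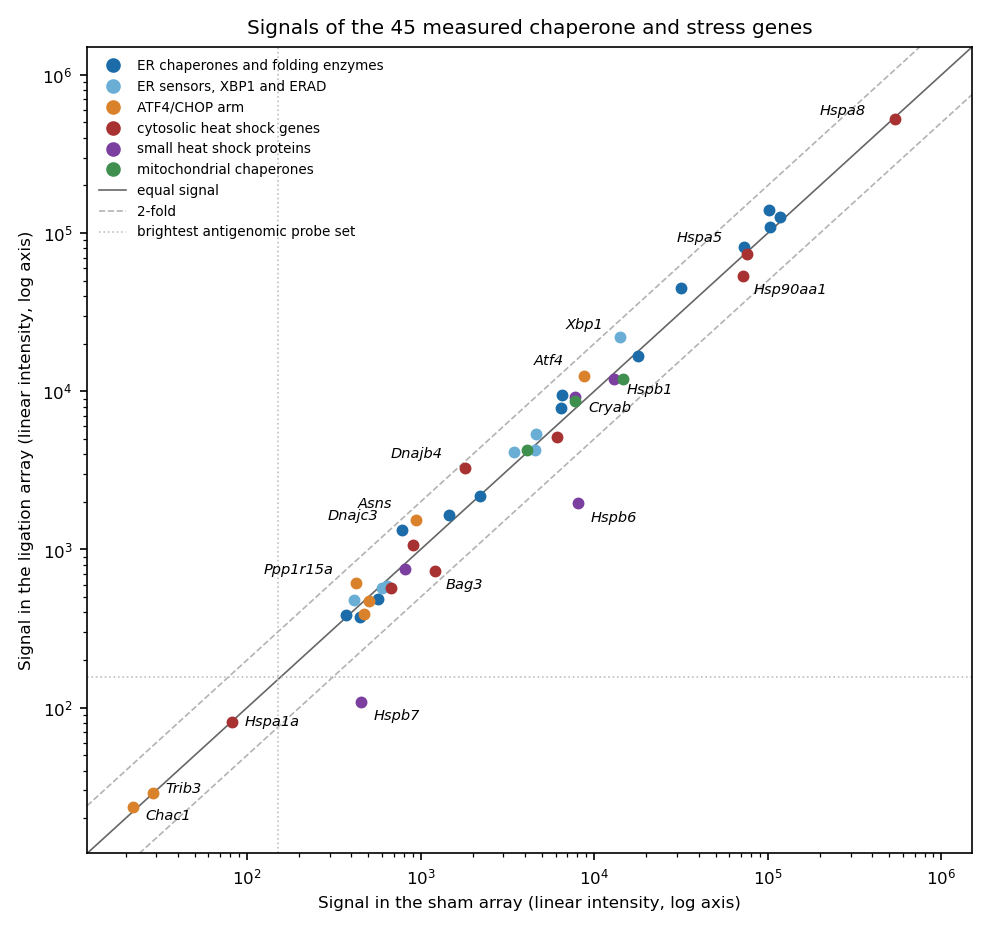
Signal of each of the 45 genes in the Sham array (x axis) and the Ligation array (y axis), both as linear intensity on log axes, with lines for equal signal, 2-fold and the brightest antigenomic probe set. Only Hspb6 and Hspb7 lie outside the 2-fold lines, and Hspa8 is the brightest gene, with signals of 523989 and 539288.

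The measured chaperones and folding enzymes of the ER were above background on both arrays, and none passed 2-fold. Their signals after ligation ran from 374.5 for Dnajb11 to 139586 for Pdia3. Of 14 measured genes, 10 were above 0 and 4 below it. Above 0 were 48.7% of all named genes and 4371 of the 7751 above background on at least 1 array. Of the 11 housekeeping genes, 7 were above 0, with a median of 0.17. The median difference of the 14 genes was 0.14, and their folds ran from 0.841 to 1.69. Hspa5, the HSP70 of the ER and the usual readout of ER stress, had signals of 82215 and 72519, a fold of 1.13. The lectin chaperones, which hold newly made glycoproteins, were among the brightest genes of the group and near equal. Calr, which encodes calreticulin, had 126314 and 117654 (1.07-fold), and Canx, which encodes calnexin, had 109022 and 102699 (1.06-fold). Pdia3, the disulfide isomerase that works with these lectins, was further apart, with 139586 and 101306 (1.38-fold).

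Hsp90b1, the HSP90 of the ER (GRP94), had 45206 and 31684 (1.43-fold). Among the disulfide isomerases, Pdia6, which also binds the sensor IRE1, had 9528 and 6490 (1.47-fold) and Pdia4 had 7809 and 6433 (1.21-fold). P4hb, an isomerase that is also a subunit of collagen prolyl hydroxylase, had 16816 and 17774 (0.946-fold), so the isomerases lay on both sides of 1.

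The largest difference among the ER genes was that of Dnajc3, an ER cochaperone of BiP known as P58IPK, with 1322.5 and 783.3 (1.69-fold). The other J-domain partners of BiP did not share it. Dnajb9, a target of XBP1, had 1663 and 1467 (1.13-fold), and Dnajb11, a partner in folding and degradation, had 374.5 and 445.1 (0.841-fold). Hyou1, the nucleotide exchange factor of BiP, was close to equal, at 2184 and 2188 (0.998-fold). Creld2 and Sdf2l1, which are known for strong induction in ER stress, had 0.847-fold (483 and 570.3) and 1.03-fold (383.3 and 373.6).

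Centring on the housekeeping genes or removing the trend of the difference on brightness turned the median of the ER chaperones to -0.03 in each case, and turned Calr, Canx and Sdf2l1 below 0. Dnajc3, Pdia6, Hsp90b1 and Pdia3 stayed above 0 under each scaling tried, with 0.59, 0.38, 0.34 and 0.29 after centring on the housekeeping genes.

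The sensors were little apart between the arrays. Ern1, which encodes IRE1α, had 584.2 after ligation and 636.8 after sham surgery (0.917-fold). Atf6, a membrane-bound factor that is cut free in ER stress, had 5378 and 4610 (1.17-fold), and Eif2ak3, the gene of the kinase PERK, had 480.2 and 414 (1.16-fold). Xbp1 stood apart from its sensors, with 21922 and 13988 (1.57-fold). The array reads the level of Xbp1 RNA at 1 probe set and does not give the spliced form that IRE1 makes.

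Genes of ER-associated degradation, which sends misfolded proteins to the proteasome, were near equal. The adaptor Sel1l had 4137 and 3440 (1.20-fold), its partner ubiquitin ligase Syvn1 had 574.9 and 599.3 (0.959-fold), and Herpud1, a membrane protein of the same complex that ER stress induces, had 4228 and 4540 (0.931-fold). Over the 7 genes of sensors, Xbp1 and degradation, 4 were above 0 and the median was 0.21. Above 0 were 48.7% of all named genes and 4371 of the 7751 above background on at least 1 array.

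The arm of ATF4 and CHOP was split. Atf4, the transcription factor translated when eIF2α is phosphorylated, had 12572 and 8762 (1.43-fold). Its target Asns, which makes asparagine, had 1534 and 941 (1.63-fold), and Ppp1r15a, the phosphatase subunit GADD34 that ends the response, had 616.5 and 421.9 (1.46-fold). Ddit3, the gene of CHOP, was not among the higher genes, with 471.6 and 501.9 (0.939-fold). Ddit4, an inhibitor of mTORC1 that several stresses induce, had 391.9 and 469.8 (0.834-fold).

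Chac1 and Trib3, which respond to ATF4 and CHOP in strong ER stress, were within background on both arrays, at 23.4 and 22.2 for Chac1 and 28.9 on each array for Trib3. The value of Trib3 was the same to the last deposited digit, as it was for 57 of the 23188 gene probe sets. The median of the 7 genes was 0.08 with these included and 0.52 over the 5 genes above background. Atf4, Asns and Ppp1r15a kept differences of 0.35, 0.54 and 0.38 after centring on the housekeeping genes.

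**Figure D3:**
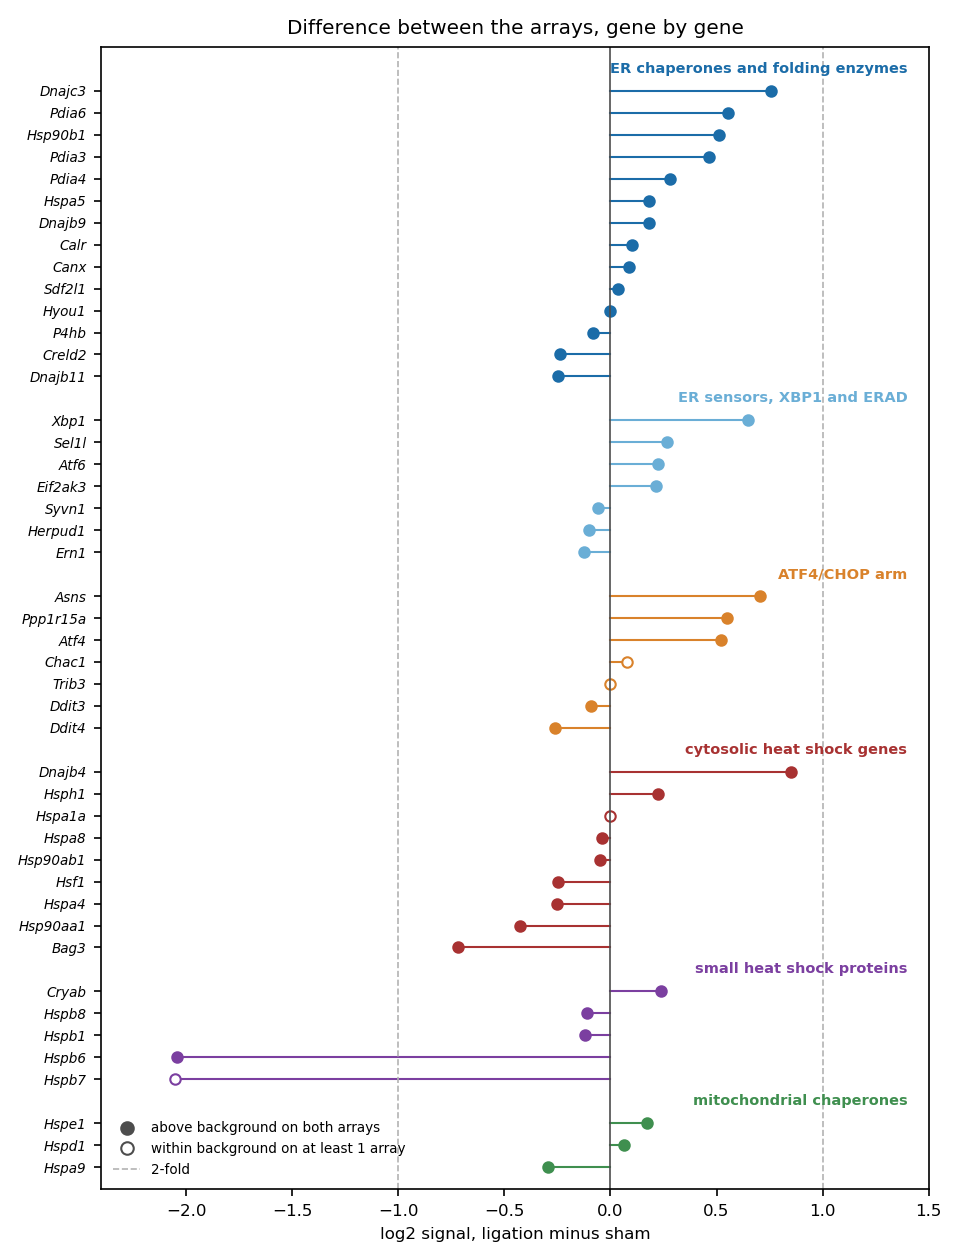
Difference in log2 signal, Ligation minus Sham (x axis), for each measured gene, grouped by role, with dashed lines at 2-fold. Open points are within background on at least 1 array. Dnajb4 has the highest value (0.85), and Hspb6 and Hspb7 have the lowest (-2.04 and -2.05).

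The heat shock genes of the cytosol lay on both sides of 0. Of 9 measured genes, 2 were above 0, 6 were below it and 1 was equal. Of all 15037 named genes, 7682 were below 0, as were 3373 of the 7751 above background on at least 1 array. The median of the 9 genes was -0.05 beside 0.14 for the ER chaperones, a gap that could not be tested. Hspa1a, the inducible HSP70, was within background at 81.7 on both arrays, again the same to the last digit. Hspa1a and its neighbor Hspa1b are nearly identical genes, so this probe set may read both. Hspa8, the HSP70 that cells make all the time, was among the brightest genes of the arrays, with 523989 and 539288 (0.972-fold). The highest signal of an array was 999963 and 998298, and folds this close to it can be compressed.

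Hsp90aa1, the stress-inducible HSP90 of the cytosol, had 53741 after ligation and 72229 after sham surgery (0.744-fold), while Hsp90ab1, its constant counterpart, had 73312 and 75738 (0.968-fold). The nucleotide exchange factors of HSP70 differed in sign. Hspa4 had 5139 and 6125 (0.839-fold), Hsph1, also called HSP105 or HSP110, had 1062 and 908.3 (1.17-fold), and Bag3, which also links HSP70 to small heat shock proteins and to autophagy of damaged filamin in muscle, had 735.2 and 1211 (0.607-fold).

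Hsf1, the factor that drives the response, had 567.5 and 673.9 (0.842-fold). Besides Hsph1, the gene above 0 was Dnajb4, a J-domain partner of HSP70, with 3255 and 1807 (1.80-fold), the highest fold of all 45 genes. Dnajb4 stayed above 0 and Bag3 and Hsp90aa1 stayed below 0 under each scaling tried, and the median of the 9 genes was -0.22 after centring on the housekeeping genes.

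The small heat shock proteins held the only members past 2-fold. Hspb6, the gene of HSP20, which is known as a target of cyclic nucleotide kinases during smooth muscle relaxation, read 1969 and 8116, which is 4.12-fold lower. Hspb7, a small heat shock protein of heart and other muscle that binds filamin C, had 109.2 and 453.4, which is 4.15-fold lower. Its ligation signal was within background, and against the brightest antigenomic probe set its fold was at least 2.89-fold lower. With a pseudocount of 64, its difference was -1.58 in place of -2.05, while that of Hspb6 was -2.01.

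The other 3 small heat shock genes were near equal. Hspb1, the gene of HSP27, which caps actin filaments, had 11890 and 12938 (0.919-fold), and Hspb8, the partner of BAG3, had 756.1 and 817.1 (0.925-fold). Cryab, the αB-crystallin of muscle and glia, had 9212 and 7797 (1.18-fold). The median of the 5 genes was -0.12 and their mean was -0.82, since 2 of the 5 lay far from the rest. Hspb2, a muscle small heat shock gene that lies next to Cryab in the genome, was 0.556-fold, with 477.5 and 859.1, so these neighbors differed in sign.

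Markers of smooth muscle were lower in the same array. Contractile genes such as Acta2 (553912 and 763073) and Myh11 (126445 and 382215) were bright on both arrays, and all 12 markers on the list were below 0, 7 were under 0.5-fold, none was within background, and the values ran from -2.27 for Smtn to -0.10 for Tagln, with a median of -1.20. Their summed signal was 2353530 against 3601612. Tagln, with 832768 and 895395, and Acta2 were near the highest signal of the arrays. Their folds, and the fold of the sum, can therefore be compressed. Only Smtn had a lower value than Hspb6, and Hspb7, known only by its bound, was not ranked among them. The part of the smooth muscle markers in the values of Hspb6, Hspb7 and Bag3 was not tested. In whole vessels, fewer cells of a type and less RNA per cell cannot be told apart.

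Markers of several other cell types were higher in the Ligation array. Above 0 were 11 of 11 endothelial markers (median 1.24, summed signal 193128 against 103607), 9 of 9 astrocyte markers (median 1.42, 107533 against 56107) and 14 of 14 macrophage and microglia markers (median 0.92, 48870 against 26558). Of the oligodendrocyte and Schwann cell markers, 8 of 10 were above 0 (median 1.62), and their summed signal, 206710 against 88198, came mostly from Pmp22 (189643 and 85563). Of the fibroblast and leptomeningeal markers, 11 of 12 were above 0 (median 0.45, 2577652 against 2325485), with Ptgds near the highest signal of each array (995512 and 993855). Neuron markers had a median of 0.10, with 7 of 10 above 0 (5362 against 4650), which was -0.07 after centring on the housekeeping genes. Within background on both arrays were Aldh1l1 of the astrocyte markers, Olig1, Olig2 and Mog of the oligodendrocyte markers, Cd163 of the macrophage markers and Nefl, Nefh and Th of the neuron markers. All 11 endothelial markers were above background on at least 1 array. Cells of these kinds also make the chaperones described here, and their part in the differences of Xbp1, Dnajc3, Dnajb4, Asns and Cryab was not tested.

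**Figure D4:**
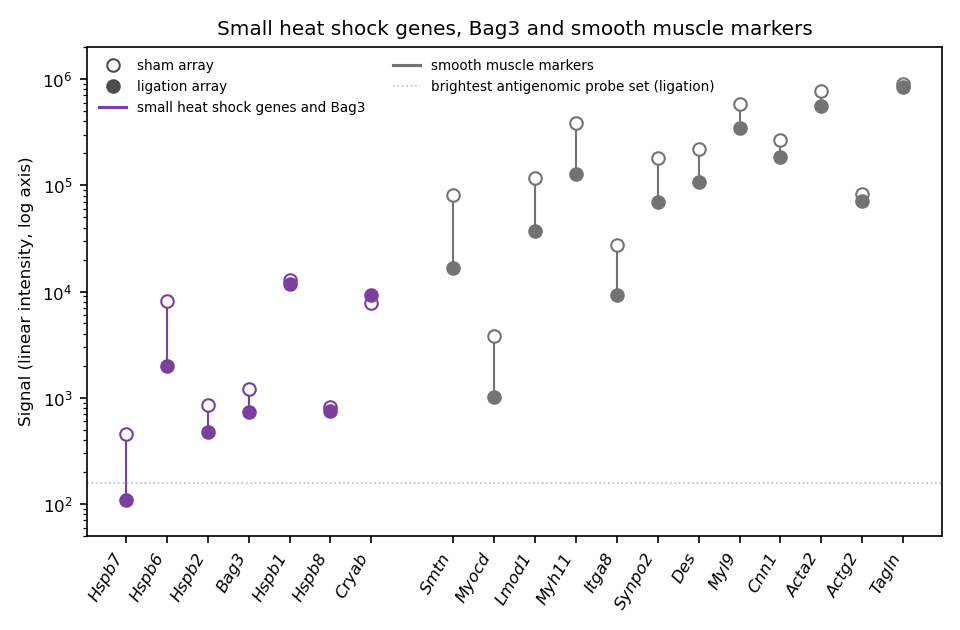
Signals (y axis, linear intensity on a log axis) in the Sham array (open points) and the Ligation array (filled points) for the 5 small heat shock genes on the member list, Hspb2 and Bag3 (purple) and for 12 smooth muscle markers (gray). Hspb6 is 4.12-fold lower after ligation and Hspb7, whose ligation signal is within background, at least 2.89-fold lower, and Hspb1, Hspb8 and Cryab are near equal beside markers from -2.27 (Smtn) to -0.10 (Tagln).

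The mitochondrial chaperones were near equal. Hspd1, which encodes HSP60, had 4273 and 4092 (1.04-fold), and its cofactor Hspe1, which encodes HSP10, had 8700 and 7724 (1.13-fold). Hspa9, the mitochondrial HSP70 also called mortalin, had 11911 and 14608 (0.815-fold). Their median was 0.06, and its sign turned after centring on the housekeeping genes (-0.11), quantile normalization and removal of the trend (-0.04 in both). Their mean was -0.02.

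Further genes of the same pathways were read from lists that did not hold the members. Of 38 further genes of ER folding and translocation, 27 were above 0 and the median was 0.18, beside 0.17 for the housekeeping genes. Within background on both arrays were 3 of the 38. Above 0 were 48.7% of all named genes and 4371 of the 7751 above background on at least 1 array. Past 2-fold were 2 of the 38, both higher, beside 4.04% of all named genes and 480 of those 7751 over 2-fold higher. Ssr2, a subunit of the translocon-associated protein complex, had 3502 and 1684 (2.08-fold), while its partners Ssr1, Ssr3 and Ssr4 had 1.06-fold, 0.885-fold and 1.03-fold. Fkbp11, a prolyl isomerase of secretory cells, had 848.9 and 412.1 (2.06-fold), and Ppib, the cyclophilin of the ER that helps collagen fold, had 24014 and 13748 (1.75-fold). Serpinh1, the collagen chaperone HSP47, went the other way, with 81103 and 103453 (0.784-fold). After centring on the housekeeping genes the median of this list was 0.01.

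Of 17 further genes of ER-associated degradation, 10 were above 0, beside 48.7% of all named genes and 4371 of the 7751 above background on at least 1 array. None of the 17 passed 2-fold, with values from 0.645-fold for the ubiquitin-conjugating enzyme Ube2g2 to 1.92-fold for Edem2, which marks misfolded glycoproteins. Of 12 further ER stress factors and proteases, none passed 2-fold either. They ran from 0.539-fold for Wfs1, an ER membrane protein, to 1.44-fold for Creb3l1, a membrane-bound relative of ATF6.

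Of 41 further genes of the ATF4 pathway, 31 were above 0 and 10 below it, the eIF2α kinase genes Eif2ak1, Eif2ak2 and Eif2ak4 among the latter. Above 0 were 48.7% of all named genes and 4371 of the 7751 above background on at least 1 array. The median of the 41 was 0.25, and 0.08 after centring on the housekeeping genes. Past 2-fold were 3 of the 41, all higher, beside 4.04% of all named genes and 480 of those 7751 over 2-fold higher. Within background on both arrays were 9 of the 41, which these counts include. Psat1, a serine synthesis enzyme, had 334.4 and 46.1 (7.26-fold, and at least 2.22-fold since the sham signal was within background). Phgdh, the first enzyme of the same pathway, had 223.4 and 89.8 (2.49-fold, at least 1.48-fold by the same bound). Slc7a11, the cystine transporter, had 35330 and 17398 (2.03-fold) and its partner chain Slc3a2 had 21002 and 12085 (1.74-fold). Nupr1, a stress-induced chromatin protein, had 75021 and 51772 (1.45-fold), and Atf3, a factor downstream of ATF4, had 1140 and 919.9 (1.24-fold). Vldlr, a lipoprotein receptor, had the lowest value, 0.506-fold. Psat1, Phgdh and Slc7a11 are also made by astrocytes, whose markers were higher in the same array, and their part here was not tested.

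Of 33 further heat shock genes and cochaperones of the cytosol, 9 were above 0 and 24 below it. Their median was -0.14 (-0.31 after centring on the housekeeping genes), and 5 of the 33 were within background on both arrays. Below 0 were 7682 of all 15037 named genes and 3373 of the 7751 above background on at least 1 array. Hspa2, an HSP70 best known from testis, was over 2-fold higher, with 169.2 and 81.2, but the sham signal was within background and the bound was at least 1.12-fold. The lowest values were 0.554-fold for Chordc1, an HSP90 cochaperone, 0.556-fold for Hspb2 and 0.565-fold for Unc45a, a chaperone of myosin. Of the 8 subunits of the CCT chaperonin, which folds actin and tubulin, 5 were below 0 with a median of -0.30. They were uneven, from 0.443-fold for Tcp1 (1536 and 3466) to 1.30-fold for Cct3 (1622 and 1250), though they form 1 complex. Of 11 further mitochondrial chaperones and proteases, 6 were above 0, none passed 2-fold, and they ran from 0.674-fold for Afg3l2 to 1.70-fold for Htra2, both proteases, with Htra2 within background on both arrays.

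**Figure D5:**
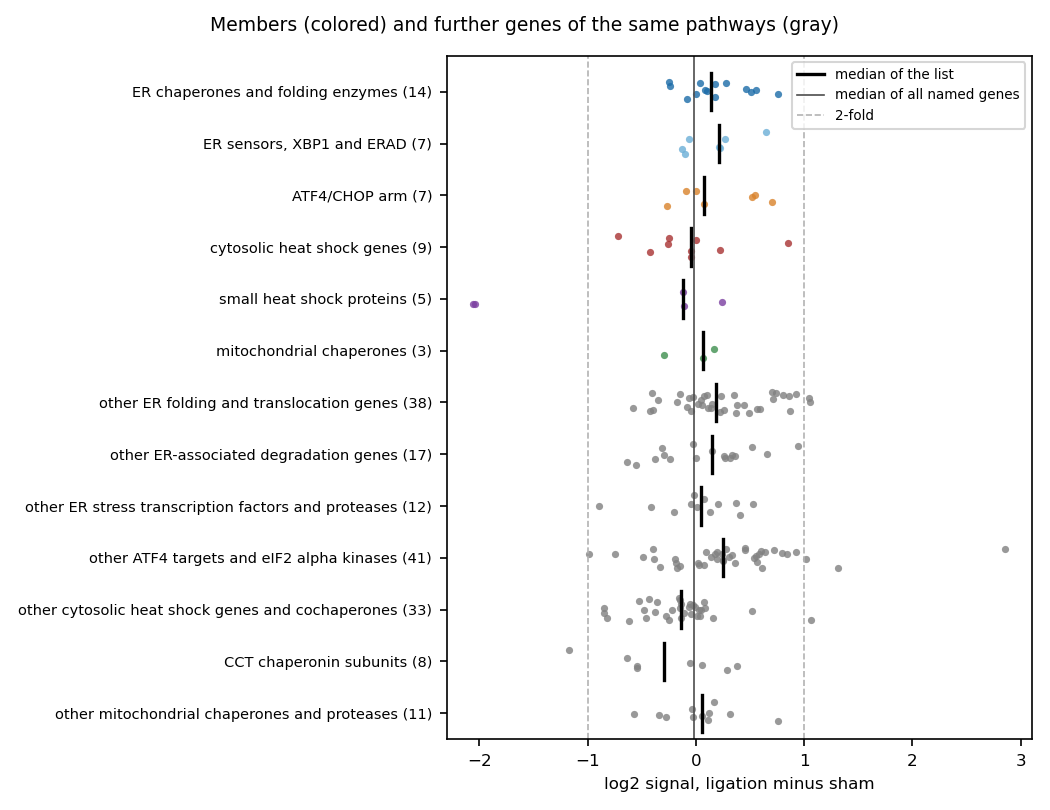
Difference in log2 signal (x axis) of each gene in the groups of members (colored) and in the further lists of the same pathways (gray), with the number of genes measured in brackets and black bars at the medians. The medians run from -0.30 for the CCT subunits to 0.25 for the further ATF4 genes, and that of all named genes is -0.01.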

How the data were processed

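Basilar artery RNA was measured on 2 Clariom S rat arrays, 1 per group, each of a pool of 4 rats. The authors deposited 1 linear signal intensity per probe set. The submitters' processing notes name RMA and Affymetrix Expression Console, with no version, and version 3.2 of a Microarray Data Analysis Tool is named in the methods. The genome build is not given in the sources used here. RMA values are usually on the log2 scale, and these are linear, so log2 was taken here.

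Of 24834 probe sets, 1646 controls were set aside. Of 23188 gene probe sets, 15049 had 1 gene symbol in the platform annotation, updated through the Entrez identifier, for 15037 genes, and the rest are unnamed here. Probe sets of a gene were averaged on the log2 scale with no filter. Thresholds were 2.0-fold and 0.5-fold. With 1 array per group, no test was possible, batch and group cannot be told apart, and precision is limited by the number of arrays. The genes named were all members, and of each further list those past 2-fold, or the extremes in each direction of a list with none, and other examples (such as Ppib, Serpinh1, the other Ssr genes, Slc3a2, Nupr1, Atf3, Vldlr, Chordc1, Hspb2, Unc45a and Cct3) were chosen after their values were seen. The members and lists were chosen with earlier results of these data known. Promoter sequences are from RefSeq (GRCr8).

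The alternatives were centring on the median or on the housekeeping genes, quantile normalization, lowess (fraction 0.3), 64 added to each signal, the brightest probe set, floors at the 25th percentile (35.9), at the median of the brighter signal (125.2) and at background, thresholds of 1.5-fold and 3-fold, and the mean of a list. The SD of 11 housekeeping genes, 0.33, stood in for a spread when alternatives were compared. The median, quantile and lowess scalings and the element search were tested on simulated data. The software was pandas 2.3.3 and numpy 2.4.6 under Python 3.11.15, with statsmodels 0.14.6 for lowess and matplotlib 3.10.9 for plots.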

Additional observations from a re-analysis of the deposited data

How the results depend on the processing

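With 1 array per group, no alternative tests a difference, and each only shows how far a value moves with the processing. Hspb6 and Hspb7 were the 2 genes under 0.5-fold under each scaling, floor and pseudocount tried, and no gene was over 2-fold higher under any of them. The looser threshold of 1.5-fold gave 4 higher and 3 lower. Both genes passed 3-fold by their measured signals, but the bound of Hspb7 (at least 2.89-fold) does not reach it. The median of the ATF4/CHOP arm was 0.52 in place of 0.08 with each of the 3 floors, because Trib3 and Chac1 were then left out. The small heat shock proteins had a mean of -0.82 against a median of -0.12. The value of Hspb7 was -1.58 with 64 added. Each gene had 1 probe set, so the brightest probe set and the floors could not move a single gene, and centring moved all genes by the same amount. Signs of values near 0 depended on the scaling. The median of all 45 genes was 0.04 as deposited and below 0 after centring on the median (-0.02), quantile normalization (-0.05), removal of the trend (-0.05) and centring on the housekeeping genes (-0.13). That of the ATF4/CHOP arm was -0.09 after the last. Calr, Canx, Sdf2l1, Chac1 and Hspd1 changed sign under at least 1 scaling. No paired analysis was possible because each group holds 1 array and there is no result from a test.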

Other observations

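The same elements were looked up before all genes with a named probe set. Of 15 named genes with the first ER stress response element in the 250 bases before a start, 9 were above 0, none was over 2-fold higher and 1 was under 0.5-fold, with a median of 0.09. For the 8 of these that are not members the median was -0.22 and 3 were above 0. For 11 genes with the second ER stress element the median was -0.01, and 4 were above 0. For 57 genes with the heat shock element the median was -0.02, with 2 over 2-fold higher and 2 under 0.5-fold. For 90 genes with the composite element of C/EBP and ATF factors it was -0.08. The median of all named genes was -0.01.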
